A study of Mus musculus with 9 samples.

Results

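Expression in injured tibialis anterior muscle, the large muscle at the front of the mouse shin, was compared between old P311-/- mice and old wild-type mice. The comparison rests on 6 of the 9 libraries of the series: all 3 old P311-/- libraries and all 3 libraries of old wild-type mice aged 24 months, chosen by their labels alone. The other 3 libraries came from wild-type mice of 4 to 6 months, called young here. They entered only the filter that chose the genes to test and the estimate of spread, except where a value of theirs is given. All groups were injured before the muscle was taken. The sources used here do not give the exact age of the P311-/- mice, how the muscle was injured or how long before sampling, which part of the gene was deleted, or whether all cells lack it. Replicates are numbered 1 to 3 in each group, and nothing says that they came from different animals. The p-values therefore cover only the spread among these libraries, which may be technical.

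P311 is the protein of the gene Nrep, a small intracellular protein first described in neurons and later in myofibroblasts of healing wounds, where it has been linked to translation of the TGF-beta ligands. TGF-beta ligands are secreted in a latent form, held in the matrix by latent TGF-beta binding proteins, and signal through SMAD proteins to raise collagen and matrix genes. After muscle injury, macrophages and lymphocytes enter the tissue, satellite cells divide and fuse into new fibres, and fibro-adipogenic progenitors lay down matrix. The gene lists described here follow those steps and add energy metabolism, protein turnover, hormone and clock genes and markers of the cell types a muscle sample can hold.

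Values are FPKM, fragment counts scaled by gene length and library size, as the authors deposited them. Testing was limited to genes that reached 0.5 FPKM in 3 or more of the 9 libraries, 15019 of 54532. Differences are old P311-/- minus old wild type on the log2(FPKM + 0.1) scale, tested with limma, and a gene was called when its p, adjusted by the Benjamini-Hochberg (BH) method over all genes tested, was under 0.05. This scale understates the change of genes with low values. The reads behind the values ranged from 14222204 to 31910890 per library. Muscle identity was plain in all 6 old libraries: the fast myosin gene Myh4 ranged from 2929 to 5499 FPKM and desmin, Des, from 866 to 1480.3 FPKM. Replicate 1 of the P311-/- group stood apart from the other 2. Its mean distance over all genes tested was 107.9 to them and 89.4 to the old wild-type libraries, while replicate 2 was at 102.2 and 103.6 and replicate 3 at 102.3 and 112.9. Called genes were therefore also counted without replicate 1, and those counts are given beside the lists or with that fit near the end.

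Few genes passed the test. In old P311-/- muscle 2 genes rose and 8 fell, so that 10 of 15019 genes tested were called, or 0.0666% (limma, BH). The genes that fell were Nrep itself, Hmgb1, Gm15446, Klra7, Btaf1, Rbp7, the mitochondrial tRNA gene mt-Tg and the RNA gene 1010001B22Rik. The genes that rose were the pseudogene Tmem181b-ps and the RNA gene Gm8066. In each of the 10 the 3 P311-/- libraries lay wholly on 1 side of the 3 old wild-type libraries. Chromosome 5 carries 4 of the 10, among 954 genes tested there.

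**Figure D1:**
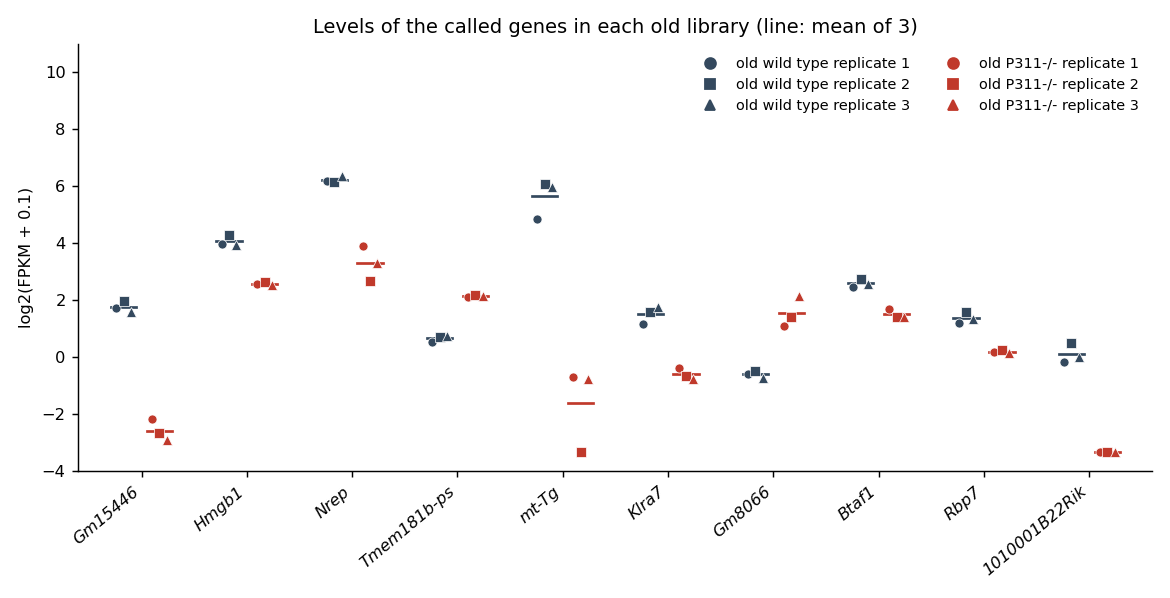
Levels of the 10 called genes in each old library, on the log2(FPKM + 0.1) scale, with a line at each group's mean of 3 and 1 symbol per replicate number. For every gene the red P311-/- symbols and the dark wild-type symbols do not overlap; Tmem181b-ps and Gm8066 are higher in P311-/- muscle and the other 8 are lower.

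Nrep, the gene targeted in these mice (ENSMUSG00000042834, GRCm38 chromosome 18, 33437019 to 33464029), was low in all 3 knockout libraries, as their labels state. It measured 14.8, 6.37 and 9.72 FPKM in P311-/- replicates 1, 2 and 3 and 72.4, 71.4 and 83.1 FPKM in old wild type. The group means were 10.3 ± 4.26 and 75.6 ± 6.51 FPKM (SD, n = 3 each), and young wild-type muscle had 86.3, 72.6 and 63.9 FPKM. The fall was 2.94 ± 0.26 (SE) on the log2 scale, with a limma adjusted p of 0.00523. Reads over the gene did not disappear, since 1062, 286 and 738 were recovered from the 3 knockout libraries against 3948, 2972 and 5048 from old wild type. Where in the gene those reads lie was not analysed here. Replicate 1 had the highest Nrep level of the 3 knockout libraries and replicate 2 the lowest.

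Hmgb1 encodes a chromatin protein that binds DNA and, once released from damaged cells, acts as an alarm signal to neighbouring and immune cells. The gene (ENSMUSG00000066551, chromosome 5, 149046702 to 149184489) measured 5.84, 6.23 and 5.72 FPKM in P311-/- muscle and 15.7, 19.6 and 15.5 FPKM in old wild type. The knockout libraries had a mean of 5.93 ± 0.264 FPKM (SD, n = 3) and the wild-type libraries of 16.9 ± 2.32 (SD, n = 3), so the groups did not come near each other. The log2 difference was -1.49 ± 0.12 (SE; limma adjusted p = 0.00443). Young wild-type muscle lay between them at 10.8, 9.43 and 9.39 FPKM. Hmgb1 has processed copies elsewhere in the genome that can take its reads, and 2 of them were abundant. Hmgb1-ps8 had 12.9, 24.8 and 18.7 FPKM in P311-/- muscle and 12.2, 11.6 and 15.1 in old wild type, and Hmgb1-ps2 had 16.0, 17.1 and 12.4 against 10.4, 9.11 and 15.4. Both had log2 differences above 0, of 0.49 and 0.41, with overlapping groups, and neither was called. The remaining tested copy, Hmgb1-ps1, lay on the other side without overlap, at 0.885, 0.618 and 0.783 FPKM against 1.745, 1.43 and 1.96 (log2 difference -1.07; limma adjusted p = 0.273), on 7 to 30 reads per library. The sources used here do not say how reads were divided between Hmgb1 and its copies, so its level is uncertain to that extent. The other genes of its list went both ways and none was called. The alarm receptor gene Tlr2 had a log2 difference of -0.50 and Cxcr4, which binds Hmgb1 with a chemokine, of -0.73, both with overlap. Hmga1, which encodes another chromatin protein, had 16.1, 17.8 and 21.2 FPKM against 14.8, 10.9 and 12.9 (log2 difference 0.51), without overlap. The related Hmgb2 measured 7.01, 2.50 and 2.77 FPKM against 4.08, 4.58 and 5.42, with replicate 1 above all wild-type libraries and the other 2 below them.

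Gm15446 and 1010001B22Rik are neighbours on chromosome 5. Gm15446, annotated as protein coding (ENSMUSG00000090015, 109923400 to 109943936), had 0.121, 0.0592 and 0.0350 FPKM in P311-/- muscle against 3.20, 3.80 and 2.92 in old wild type. These values rest on 13, 4 and 4 reads against 262, 238 and 267. Its log2 difference of -4.33 ± 0.26 (SE) had the smallest p of all genes tested (limma adjusted p = 4.63e-04). Young wild-type muscle was at 1.71, 1.30 and 1.90 FPKM. 1010001B22Rik, a long non-coding RNA gene (ENSMUSG00000097863, 109995511 to 109996398), had no read in any P311-/- library and 10, 13 and 13 reads in old wild type (limma adjusted p = 0.0389). No fold is given for it because the knockout group is at 0. Gm15446 and 1010001B22Rik were under 0.5 FPKM in every knockout library, so they passed the filter through wild-type libraries alone.

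Klra7 encodes a Ly49 receptor, one of a family of natural killer cell receptors that read MHC class I molecules on other cells. It measured 0.665, 0.531 and 0.497 FPKM in P311-/- muscle and 2.15, 2.91 and 3.27 in old wild type (ENSMUSG00000067599, chromosome 6, 130218605 to 130233322). The log2 difference was -2.10 ± 0.22 (SE; limma adjusted p = 0.0103). Of the 7 other tested members of the same gene cluster, 6 were also lower in every knockout library than in any old wild-type library, against 9.10% of all genes tested, though none of them was called. Klra4 had 0.451, 0.135 and 0.0266 FPKM against 0.926, 1.89 and 3.42, and Klra8 had 0.625, 0.143 and 0 against 1.33, 2.25 and 4.99. Klra3, Klra9, Klra13-ps and Klra14-ps showed the same separation, with log2 differences from -2.46 to -0.88, and Klra2 overlapped between groups. Klra4 and Klra14-ps were under 0.5 FPKM in every knockout library, so they were tested only because wild-type libraries were higher. Klra7, Klra8 and Klra9 were under it in knockout replicate 3, at 0.497, 0 and 0.104 FPKM, so they too needed wild-type libraries to be tested. The share of separated members is therefore partly set by the filter. Members with reads that were not tested, Klra1, Klra5, Klra6, Klra10, Klra17 and Klra11-ps, all overlapped. The count over tested members therefore does not show a fall across the whole family. Members of the cluster are close copies, so reads can be shared between them. In bulk tissue, fewer cells of a type and less RNA per cell cannot be told apart.

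Btaf1 encodes an ATPase that removes TATA-binding protein from promoters. It had 3.16, 2.58 and 2.56 FPKM in P311-/- muscle and 5.43, 6.69 and 5.80 in old wild type (ENSMUSG00000040565, chromosome 19, 36926079 to 37012752; log2 difference -1.08 ± 0.13, SE; limma adjusted p = 0.0309). Young wild-type libraries, at 7.31, 6.36 and 7.28 FPKM, were also above all knockout libraries. Rbp7 encodes a retinol-binding protein of endothelial cells and fat. It had 1.03, 1.09 and 1.01 FPKM against 2.18, 2.94 and 2.42 (ENSMUSG00000028996, chromosome 4, 149449687 to 149454978; log2 difference -1.18 ± 0.15, SE; limma adjusted p = 0.0373). Rbp7 rests on 21, 14 and 22 reads in the knockout libraries. mt-Tg, the mitochondrial tRNA for glycine (ENSMUSG00000064359, 9391 to 9458 of the mitochondrial genome), had 1, 0 and 1 reads in P311-/- muscle and 43, 77 and 104 in old wild type (limma adjusted p = 0.0103). With so few reads on one side its fold depends on the pseudocount and is not given. At 0.516, 0 and 0.487 FPKM in P311-/- muscle, mt-Tg needed wild-type libraries to pass the filter.

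The genes that rose were both non-coding. Tmem181b-ps, a transcribed pseudogene of the membrane protein gene Tmem181a (ENSMUSG00000096780, chromosome 17, 6438524 to 6467022), had 4.27, 4.49 and 4.34 FPKM in P311-/- muscle and 1.35, 1.56 and 1.56 in old wild type. Its log2 difference was 1.49 ± 0.14 (SE; limma adjusted p = 0.00693), while the parent gene Tmem181a overlapped between groups at 1.83, 2.25 and 2.17 against 2.203, 2.30 and 1.97 FPKM. Gm8066 (ENSMUSG00000106237, chromosome 5, 137510253 to 137517501) had 2.02, 2.54 and 4.37 FPKM against 0.570, 0.622 and 0.512, a log2 difference of 2.13 ± 0.26 (SE; limma adjusted p = 0.0309). It lies within the annotated span of Epo, on the opposite strand, and Epo was listed at 0 in all 6 libraries. Young wild-type muscle, at 5.17, 4.32 and 3.76 FPKM, was nearer to the knockout than to old wild type for Gm8066.

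The calls were not equally firm. Nrep, Hmgb1, Gm15446 and Tmem181b-ps were called in all 9 fits that left out 1 library of the series in turn. The adjusted p of mt-Tg reached 0.0751 without wild-type replicate 2 and 0.0919 without wild-type replicate 3. That of Klra7 passed 0.05 without P311-/- replicate 2 (0.0573) or 3 (0.0511) and without wild-type replicate 2 (0.107) or 3 (0.0919). Gm8066 was called in 2 of the 9 fits, without P311-/- replicate 1 or 3, and its adjusted p reached 0.150 without wild-type replicate 2. Btaf1, Rbp7 and 1010001B22Rik were called in 1 of the 9, the fit without P311-/- replicate 1, and their adjusted p reached 0.178, 0.190 and 0.386 without wild-type replicate 2.

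Several uncalled genes also separated the groups. Wdfy1, an endosomal protein linked to Toll-like receptor signalling, had 4.64, 4.66 and 4.33 FPKM in P311-/- muscle and 1.62, 1.90 and 2.35 in old wild type (log2 difference 1.19; limma adjusted p = 0.0615). Aspa, which cleaves N-acetylaspartate, had 2.097, 1.81 and 1.65 FPKM against 3.70, 4.53 and 3.51 (-1.04; limma adjusted p = 0.0880). Tfrc, the transferrin receptor that brings iron into cells, had 54.9, 41.7 and 32.8 FPKM against 79.3, 92.1 and 96.4 (-1.07; limma adjusted p = 0.165). None of these passed the test, although the groups did not overlap. The insulin-degrading enzyme gene Ide (log2 difference -0.81), the TGF-beta-induced transcription factor gene Klf10 (-0.79) and the nicotinamide riboside kinase gene Nmrk2 (-0.99) had the same kind of separation downward, and the chromatin remodeller Arid1a (0.54), the adhesion protein paxillin, Pxn (0.66), and the interleukin-6 receptor gene Il6ra (0.77) upward. Over all genes tested, 8.40% had every knockout library above every old wild-type library and 9.10% the reverse, and 7.28% and 8.17% had an unadjusted p under 0.05 in the higher and the lower direction.

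**Figure D2:**
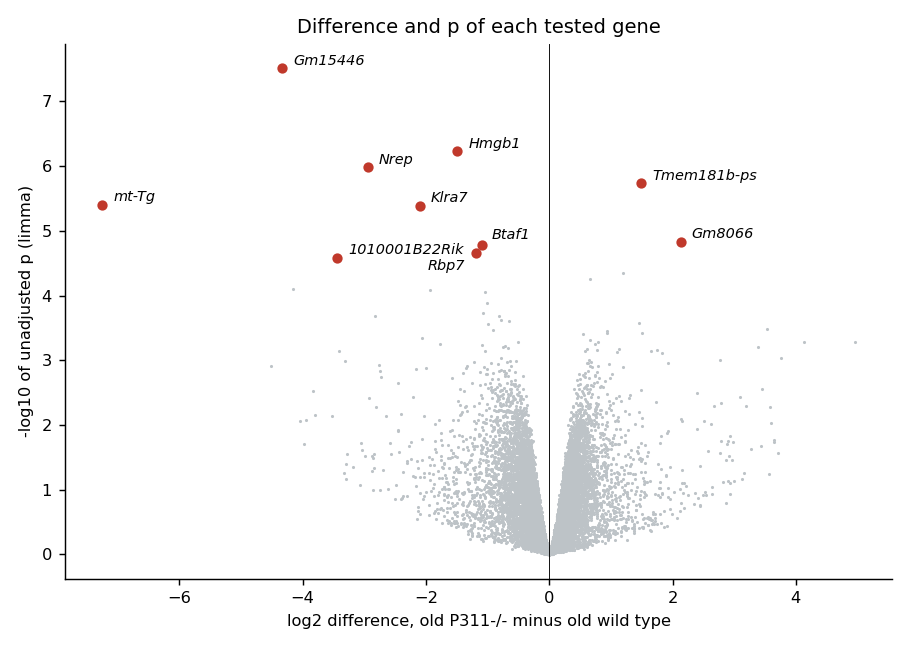
The log2 difference between old P311-/- and old wild-type muscle on the x axis and -log10 of the unadjusted limma p on the y axis, 1 point per gene tested, with the 10 called genes in red. The position of mt-Tg and 1010001B22Rik on the x axis depends on the pseudocount; Gm15446 has the smallest p.

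Genes that respond to glucocorticoid hormone were the list with the largest share of small p-values in the higher direction among those described here. All lists were chosen with earlier results of these data known. The shares given for this and the other lists are therefore descriptions and not independent tests. Glucocorticoids are adrenal stress hormones that, in muscle, turn on genes of protein breakdown and fuel use. None of the 20 tested genes of this list was called. Of them, 11 had an unadjusted p under 0.05, all higher in P311-/- muscle, against 7.28% of all genes tested, and 6 had knockout libraries all above old wild type. The list's median log2 difference was 0.57, against 0.00 for all genes tested. It was carried by replicates 2 and 3: their own medians against the old wild-type mean were 0.92 and 0.81, and that of replicate 1 was 0.02. Slc25a25, a mitochondrial carrier of ATP-Mg, had 2.92, 6.19 and 5.96 FPKM in P311-/- muscle and 1.73, 1.62 and 1.69 in old wild type (log2 difference 1.45; limma adjusted p = 0.180). Ddit4, an inhibitor of the growth regulator mTORC1, had 7.03, 14.7 and 15.4 FPKM against 4.36, 3.75 and 4.03 (1.51; limma adjusted p = 0.201). Per1, a clock repressor that is also a direct glucocorticoid target, had 6.93, 18.4 and 17.8 FPKM against 2.58, 3.81 and 4.93 (1.82; limma adjusted p = 0.227). In all 3 genes replicate 1 lay above the wild-type libraries but well under replicates 2 and 3. Errfi1, a brake on EGF receptor signalling, had 12.3, 18.4 and 19.1 FPKM against 9.43, 8.98 and 9.28. Klf15, a transcription factor of amino acid breakdown, had 8.39, 19.3 and 19.2 FPKM against 7.498, 8.24 and 7.25. The classical target Fkbp5 had 2.02, 6.36 and 6.40 FPKM against 2.89, 2.31 and 1.82, with replicate 1 inside the wild-type range. Without replicate 1, 12 of the 20 were called, all higher, against 6.19% of all genes tested.

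Clock genes showed a similar split between libraries. The circadian clock is a loop in which CLOCK and BMAL1 (gene Arntl) switch on the Per and Cry genes, whose proteins shut the loop off. Of 19 tested clock genes none was called, 5 had an unadjusted p under 0.05, all higher, against 7.28% of all genes tested, and the median log2 difference was 0.40. The medians by library were -0.09, 0.64 and 0.52 for P311-/- replicates 1, 2 and 3. Among the repressors, Cry2 had 5.94, 9.39 and 9.29 FPKM against 5.24, 4.82 and 5.86, Per2 1.96, 3.32 and 3.58 against 1.12, 2.02 and 1.69, and Per3 4.82, 6.14 and 7.01 against 2.76, 4.45 and 4.79. The activators lay on the other side: Arntl had 1.32, 1.16 and 1.37 FPKM against 2.09, 1.51 and 1.54, and Clock 2.82, 3.17 and 3.16 against 3.39, 4.25 and 3.41, both without overlap and both uncalled. Without replicate 1, 5 of the 19 were called, all higher, against 6.19% of all genes tested. The sources used here do not say at what time of day muscle was taken.

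Promoter sequences are shown for 3 of these hormone and clock genes, whose levels were lowest in replicate 1 among the knockout libraries, and for Hmgb1 beside them. Each is the 250 bases before the first start listed by RefSeq on GRCm38.p6, read 5′ to 3′ on the gene's strand. Capitals mark CACGTG, the E-box that CLOCK and BMAL1 bind, which reads the same on both strands. AGAACA, the core of a glucocorticoid response element, was sought on both strands as AGAACA or TGTTCT; a match to it could overlap an E-box by its last 2 bases. The regions are chr11:69098699-69098948 (plus strand) for Per1, chr10:59951771-59952020 (minus) for Ddit4, chr2:32451471-32451720 (minus) for Slc25a25 and chr5:149053058-149053307 (minus) for Hmgb1.
Per1: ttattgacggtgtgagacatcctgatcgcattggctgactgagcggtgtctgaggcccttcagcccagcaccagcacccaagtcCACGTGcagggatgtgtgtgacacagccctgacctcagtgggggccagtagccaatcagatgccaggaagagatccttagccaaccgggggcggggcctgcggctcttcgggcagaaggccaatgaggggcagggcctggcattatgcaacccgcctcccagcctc
Ddit4: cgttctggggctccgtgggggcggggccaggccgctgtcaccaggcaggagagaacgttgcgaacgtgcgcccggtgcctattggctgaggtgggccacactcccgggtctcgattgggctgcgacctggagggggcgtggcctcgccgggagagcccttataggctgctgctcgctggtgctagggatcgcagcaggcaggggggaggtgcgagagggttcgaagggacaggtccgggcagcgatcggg
Slc25a25: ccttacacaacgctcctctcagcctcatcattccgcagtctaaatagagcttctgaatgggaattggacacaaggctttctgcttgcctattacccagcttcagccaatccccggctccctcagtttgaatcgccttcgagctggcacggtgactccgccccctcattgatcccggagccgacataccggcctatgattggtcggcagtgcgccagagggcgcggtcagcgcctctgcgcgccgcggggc
Hmgb1: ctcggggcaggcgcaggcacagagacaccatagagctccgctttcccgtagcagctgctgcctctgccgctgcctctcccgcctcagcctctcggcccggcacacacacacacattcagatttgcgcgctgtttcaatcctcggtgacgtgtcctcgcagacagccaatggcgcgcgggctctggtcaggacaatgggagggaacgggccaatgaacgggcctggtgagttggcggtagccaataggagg
Per1 holds 1 E-box in this window and the other 3 hold none; none of the 4 holds AGAACA. The E-box was found in 6.05% of 27025 RefSeq promoter windows and in 8.42% of the 10278 belonging to genes tested here. It was found in 5 of 16 clock genes with a window (31.2%: Bhlhe41, Ciart, Cry1, Per1 and Tef) and in 4 of 18 glucocorticoid-responsive genes (22.2%: Dusp1, Fkbp5, Klf15 and Per1). AGAACA was found in 16.2% of all windows, 11.1% of those of tested genes, 11.1% of the glucocorticoid list and 0 of 16 clock genes. These are letter matches in a short window and say nothing of binding.

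Genes of muscle breakdown followed the same libraries. Fbxo32 and Trim63 encode ubiquitin ligases that mark muscle proteins for the proteasome, and FOXO transcription factors switch them on. Of 15 tested genes of this list none was called and 5 had an unadjusted p under 0.05, all higher, against 7.28% of all genes tested, with a median log2 difference of 0.42 and library medians of -0.12, 0.80 and 0.74. Foxo3 had 3.94, 6.35 and 6.05 FPKM in P311-/- muscle against 3.60, 3.32 and 3.81, and Foxo1 2.13, 2.99 and 3.22 against 2.11, 2.01 and 1.98. Eif4ebp1, a brake on translation, had 15.8, 28.2 and 26.3 FPKM against 14.2, 10.9 and 14.2. Fbxo32 had 17.01, 56.7 and 61.1 FPKM against 26.7, 23.8 and 20.5, and Trim63 36.5, 74.3 and 77.8 against 37.6, 48.4 and 62.0. For both ligases replicate 1 was below every wild-type library and the other 2 above every one. Without replicate 1, 8 of the 15 were called, all higher, against 6.19% of all genes tested.

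**Figure D3:**
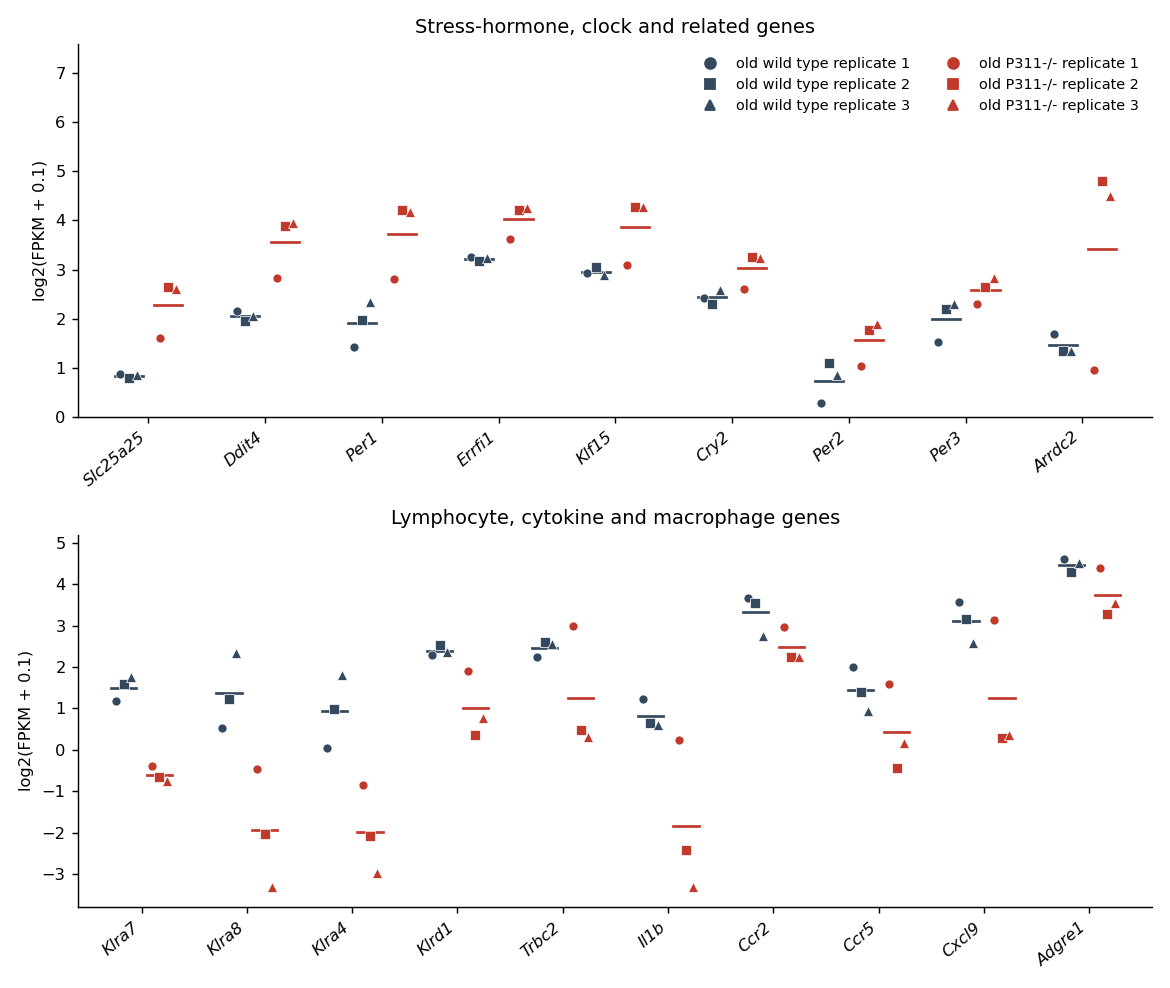
Levels of hormone, clock and related genes (upper panel) and of lymphocyte, cytokine and macrophage genes (lower panel) in each old library on the log2(FPKM + 0.1) scale, with a line at each group's mean of 3. P311-/- replicate 1, the red circle, sits nearer to the wild-type symbols than replicates 2 and 3 for Arrdc2, Trbc2, Cxcl9 and Adgre1, while Klra7 is low in all 3.

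No tested gene of the 3 lists of the TGF-beta pathway, with which P311 has been linked, was called. The 3 ligand genes were uncalled: Tgfb1 had 7.73, 4.77 and 5.39 FPKM in P311-/- muscle and 5.86, 4.96 and 7.75 in old wild type, Tgfb2 3.61, 5.64 and 5.16 against 3.78, 3.32 and 2.62, and Tgfb3 12.3, 13.9 and 17.4 against 10.6, 9.53 and 13.1. All 3 overlapped between groups, with log2 differences of -0.06, 0.54 and 0.39. Over the 11 tested ligands and receptors 1, Tgfb2, had an unadjusted p under 0.05, and the median of 0.16 turned to -0.05 when trends with gene length and GC content were removed. Among the 15 genes of latent binding proteins and SMAD regulators none was called, and 3 had an unadjusted p under 0.05, all higher. In 5 of them the knockout libraries were all above old wild type. Over all genes tested these shares were 7.28% and 8.40%. The list's median length was 5625 bases, and the share at p under 0.05 was 9.588% over genes of 4 to 8 kb. Its median difference of 0.22 was 0.08 with length and GC trends removed. Ltbp4 had 28.5, 21.9 and 29.8 FPKM against 17.9, 17.2 and 15.9 (log2 difference 0.64; limma adjusted p = 0.244), and Ltbp3 21.9, 20.9 and 25.6 against 14.9, 14.7 and 18.2 (0.52; limma adjusted p = 0.258). For both, all 3 knockout libraries were above wild type, replicate 1 included. Smurf1, a ligase that removes TGF-beta receptors and SMADs, had 4.70, 4.16 and 5.45 FPKM against 3.67, 3.34 and 3.97. TGF-beta target genes had a median of 0.02 over 13 tested, with 0 called. The target Thbs1, which activates latent TGF-beta, had 4.53, 1.69 and 2.77 FPKM against 4.69, 5.17 and 4.07. Without replicate 1, 1 ligand or receptor gene was called higher and 1 lower, 3 latent binding and SMAD genes were called higher, and 1 target gene was called lower. Over all genes tested, 6.19% were called higher and 5.32% lower in that fit.

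Lymphocyte genes were low in knockout replicates 2 and 3, and some in all 3 knockout libraries. Of 22 tested markers of T and natural killer cells, 1 fell (Klra7), 8 had an unadjusted p under 0.05, all lower, against 8.17% of all genes, and the median was -0.74. Among natural killer genes without overlap, Klrd1, a subunit of the NKG2 receptors, had 3.67, 1.18 and 1.60 FPKM against 4.79, 5.65 and 5.07, and Gzma, a killer-cell protease, 2.998, 1.11 and 2.60 against 8.20, 3.72 and 6.95. T-cell genes were split by library. Trbc2, a constant region of the T-cell receptor, had 7.86, 1.29 and 1.15 FPKM against 4.66, 6.02 and 5.74, with replicate 1 the highest of all 6. Cd3e went the other way, with 0.928, 0.836 and 0.819 FPKM against 0.542, 0.814 and 0.396. The summed FPKM of the 23 markers was 44.2, 12.5 and 17.1 in P311-/- muscle and 45.9, 41.5 and 50.2 in old wild type, so replicate 1 lay within the wild-type range and replicates 2 and 3 below it. Young wild-type muscle summed to 28.3, 27.2 and 28.0. No marker of the list was at 0 in all 6 libraries. The list's medians by library were 0.27, -1.41 and -1.28.

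Cytokine, macrophage and interferon genes had the same split. Of 19 tested cytokine and chemokine genes none was called and 3 had an unadjusted p under 0.05, all lower, against 8.17% of all genes tested, and the median was -0.68 (0.27, -1.43 and -0.98 by library). Il1b, the fever cytokine made by macrophages and neutrophils, had 1.09, 0.088 and 0 FPKM against 2.25, 1.46 and 1.41. Ccr2, the receptor that draws monocytes into injured tissue, had 7.71, 4.66 and 4.65 FPKM against 12.6, 11.6 and 6.60. The chemokine Cxcl9 had 8.65, 1.11 and 1.19 FPKM against 11.8, 8.90 and 5.87, and Ccl8 331.5, 57.6 and 78.6 against 332.0, 211.9 and 234.7. Macrophage and monocyte markers had a median of only -0.16 over 19 tested, with 13 below 0 and 6 above. The 20 listed markers summed to 1289, 608.3 and 753.8 FPKM against 1459, 1053 and 1226, most of which was the lysozyme gene Lyz2 at 1042, 426.6 and 562.3 against 1157, 843 and 1016. Adgre1, which encodes the macrophage antigen F4/80, had 20.9, 9.59 and 11.5 FPKM against 24.4, 19.5 and 22.9. The scavenger receptor gene Cd163 went the other way, at 5.64, 8.02 and 8.43 FPKM against 7.03, 4.66 and 3.99. Among 26 tested interferon-response genes none was called and none had an unadjusted p under 0.05. Their median of -0.07 combined medians of 0.96, -0.73 and -0.56 in P311-/- replicates 1, 2 and 3, and it ranged from -0.70 to 0.24 when 1 library was left out. Isg15 had 25.9, 2.59 and 3.85 FPKM against 15.1, 7.58 and 7.17. B and plasma cell markers summed to 178.7 FPKM in replicate 1 and to 24.3 and 29.4 in replicates 2 and 3, against 92.5, 68.8 and 44.0. Of the neutrophil markers, Mpo and Ly6g were at 0 in all 6 libraries. Without replicate 1, 7 T and natural killer markers, 7 cytokine genes, 8 interferon genes and 2 macrophage markers were called, all lower, against 5.32% of all genes tested. The part of these cell-type levels in the other differences was not tested.

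Fibrillar and network collagen genes had lower medians in replicates 2 and 3 but not in replicate 1. No fibrillar or network collagen gene of 18 tested was called or had an unadjusted p under 0.05, though 17 had a log2 difference under 0, with a median of -0.47 and library medians of 0.25, -0.88 and -0.49. Col3a1 had 491.9, 217.5 and 259.1 FPKM in P311-/- muscle against 491.5, 374.0 and 431.4, Col1a1 265.4, 128.7 and 164.4 against 217.2, 167.7 and 210.3, and the basement membrane gene Col4a1 58.4, 22.9 and 27.8 against 46.6, 49.5 and 55.8. Without replicate 1, 8 of the 18 were called, all lower, against 5.32% of all genes tested. Other matrix lists were nearer to 0. Collagen folding and crosslinking genes had a median of -0.02 over 20 tested, with library medians of 0.21, -0.26 and 0.00, and matrix metalloproteinases and their inhibitors of 0.05 over 12 (0.09, -0.23 and 0.06). Elastic fibre, proteoglycan and matricellular genes had a median of -0.15 over 19 (0.17, -0.61 and -0.19). Lumican, Lum, a proteoglycan that spaces collagen fibrils, had 169.3, 70.8 and 75.2 FPKM against 148.8, 176.5 and 177.2. Markers of fibro-adipogenic progenitors and fibroblasts had a median of -0.06, which lay at 0.06 when libraries were scaled to equal totals, a scaling that moved the median of all genes by 0.12. Pdgfra, their receptor gene, had 8.54, 6.62 and 7.75 FPKM against 9.61, 7.80 and 6.36, so all 3 knockout libraries lay within the wild-type range. Lysyl oxidase, Lox, which crosslinks collagen, had 15.1, 7.52 and 12.2 FPKM against 17.3, 16.3 and 13.7, uncalled. Without replicate 1, 2 folding and crosslinking genes, 3 elastic fibre and proteoglycan genes and 1 fibroblast marker were called lower, and 2 metalloproteinase or inhibitor genes higher. Over all genes tested, 5.32% were called lower and 6.19% higher in that fit.

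Some tendon and skin genes were low in all knockout libraries. Tnmd, a membrane protein of tendon cells, had 4.92, 7.61 and 4.99 FPKM against 11.8, 16.6 and 16.0 (log2 difference -1.34; limma adjusted p = 0.244), and Kera, a tendon and cornea proteoglycan, 1.54, 1.82 and 1.81 against 3.03, 6.43 and 4.92. Scx, the tendon transcription factor, overlapped between groups at 7.53, 8.56 and 10.2 against 5.26, 8.54 and 15.9. The 10 tenocyte markers summed to 77.7, 87.5 and 121.9 FPKM against 101.4, 116.6 and 103.4. The 10 epidermal markers summed to 3.57, 3.77 and 3.72 FPKM against 8.09, 11.2 and 24.1. Young wild-type muscle summed to 6.92, 3.14 and 63.2 FPKM, a range that holds the knockout sums. Only 5 of the markers were tested, and 4 of these were lower in every knockout library than in any old wild-type library, against 9.10% of all genes tested. Markers this low in knockout muscle can pass the filter through wild-type libraries alone. The marker Krtdap, at 0.465, 1.15 and 0.487 FPKM in P311-/- muscle, needed wild-type libraries to be tested. The count of separated markers is therefore no support for a fall of skin genes. Krt14 was at 0 in all 3 knockout libraries and at 0.105, 0.515 and 1.08 FPKM in old wild type. None of these was called.

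Genes of the respiratory chain were lower by a small amount in nearly every member. The chain passes electrons from complex I to complex IV in the inner mitochondrial membrane, and complex V uses the resulting proton gradient to make ATP. Of 37 nuclear genes of complex I, none was called, 36 had a log2 difference under 0, 19 had an unadjusted p under 0.05, all lower, and 18 had knockout libraries all below old wild type. The median was -0.38. Of 42 nuclear genes of complexes II to V, none was called, 39 had a difference under 0, 21 had an unadjusted p under 0.05, all lower, and 25 did not overlap, with a median of -0.40. Over all genes tested these lower shares were 8.17% and 9.10%. All 3 knockout libraries took part: the medians by library were -0.45, -0.17 and -0.54 for complex I and -0.40, -0.24 and -0.54 for the others, and when any 1 library was left out the median ranged from -0.47 to -0.30 for complex I and from -0.48 to -0.32 for the others. Without replicate 1, 3 genes of complex I and 12 of complexes II to V were called, all lower, against 5.32% of all genes tested. Ndufs4, a complex I subunit needed for its assembly, had 75.3, 72.3 and 54.7 FPKM against 86.7, 123.0 and 112.4. Cox6c, of complex IV, had 147.5, 125.3 and 90.5 FPKM against 187.1, 278.8 and 220.1, Uqcrb, of complex III, 265.5, 243.0 and 163.7 against 335.9, 465.1 and 374.4, and Atp5j, of complex V, 115.0, 116.3 and 87.2 against 148.5, 200.3 and 174.6. In each of these genes the groups did not overlap, and replicate 3 had the lowest level.

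Gene length moved with these differences. Across the 15019 genes tested the log2 difference had a Spearman correlation of 0.16 with gene length, and of 0.36 with GC content over 15002 genes; genes of 1 comparison share libraries and are not independent replicates. Genes under 1 kb had a median difference of -0.15 over 2095 genes, and genes over 8 kb of 0.07 over 2099. The median length was 1569 bases for complex I and 3628 for all genes tested. With each library's trend with length removed, the medians were -0.25 for complex I and -0.30 for complexes II to V, and with length and GC removed together they were -0.31 and -0.29. Ribosomal protein genes, which are also short (median 1775.5 bases), had 29 of 76 with an unadjusted p under 0.05, all lower. That lower share was 8.17% over all genes tested and 13.08% over genes of 1 to 2 kb. Their median difference was -0.24 (-0.19 with length and GC removed). None was called, and 22 of the 76 were called without replicate 1, all lower, against 5.32% of all genes tested. Rpl34 had 121.0, 76.9 and 66.4 FPKM against 145.4, 150.2 and 145.5, and Rpl39 130.9, 83.2 and 61.5 against 134.6, 173.9 and 173.4.

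Mitochondrially encoded genes behaved unevenly. All 13 protein genes had a log2 difference under 0, with a median of -0.36 and library medians of -0.82, 0.08 and -0.40, but the median was 0.10 with length and GC trends removed. mt-Nd3 had 44.5, 51.3 and 28.8 FPKM in P311-/- muscle and 158.1, 441.2 and 1141 in old wild type, the one gene of the 13 without overlap (log2 difference -3.41; limma adjusted p = 0.218). The abundant mt-Co1 overlapped at 18571, 33919 and 24739 FPKM against 30980, 38794 and 27362. The ribosomal RNA gene mt-Rnr1 had 1118, 1337 and 962.2 FPKM against 2022, 3276 and 2077. Mitochondrial genes took 9.47%, 14.1% and 10.7% of reads in P311-/- libraries and 13.2%, 17.6% and 13.6% in old wild type. Genes of the tricarboxylic acid cycle had a median of -0.17 over 18 tested. Of them, 5 had an unadjusted p under 0.05, all lower, against 8.17% of all genes tested. Sucla2, a subunit of succinate-CoA ligase, had 135.0, 146.5 and 119.7 FPKM against 170.7, 197.8 and 185.7. Fatty acid genes (median 0.06 over 25) and glycolysis genes (0.03 over 20) had none at an unadjusted p under 0.05.

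**Figure D4:**
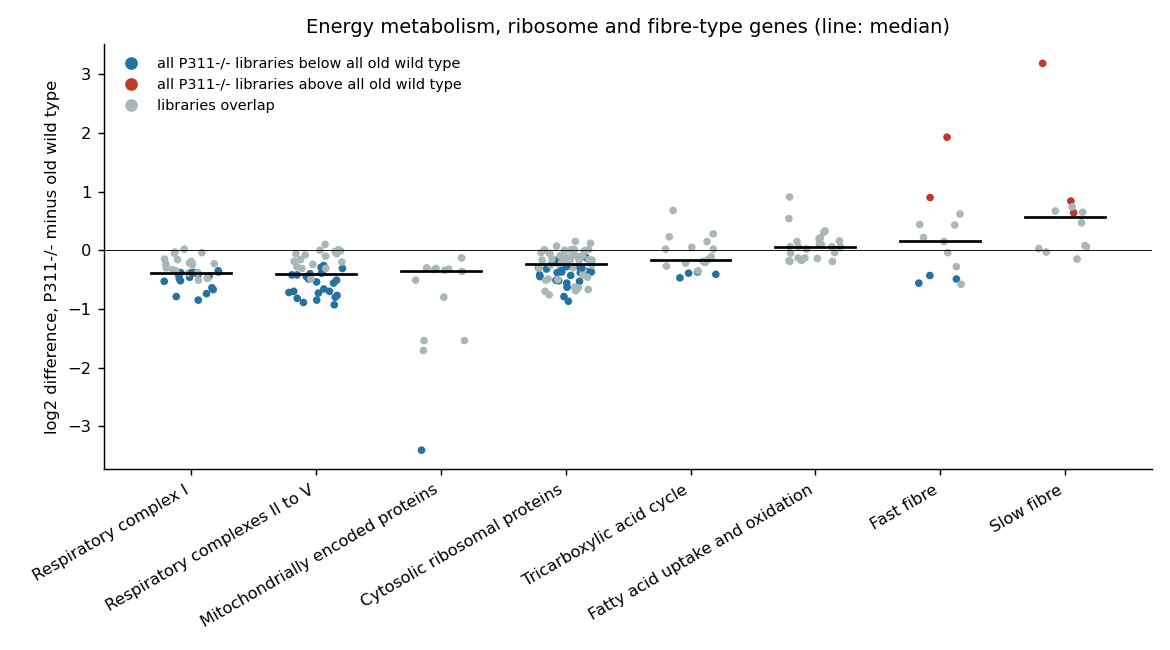
The log2 difference between old P311-/- and old wild-type muscle of each tested gene in 8 lists, with a black line at the list's median; blue and red points are genes whose libraries do not overlap between groups. The respiratory complexes lie almost wholly below 0, at medians of -0.38 and -0.40, while fatty acid genes centre on 0.06 and fibre-type genes spread widely.

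Fibre-type genes pointed in several directions. Fibres contract at a speed set by their myosin: Myh7 marks slow fibres, Myh2, Myh1 and Myh4 the fast types from the more to the less oxidative. Myh7 had 0.883, 3.95 and 7.26 FPKM in P311-/- muscle and 0.305, 0.448 and 0.0721 in old wild type (log2 difference 3.19; limma adjusted p = 0.264). Myh2 had 69.8, 182.3 and 234.3 FPKM against 66.8, 50.7 and 15.9 (1.93; limma adjusted p = 0.272), and Myh1 1701, 1982 and 2030.3 against 1071, 1099 and 890.7 (0.90; limma adjusted p = 0.255). In these 3 genes every knockout library was above every old wild-type library. The most abundant, Myh4, overlapped at 2929, 5499 and 4909 against 4526, 3627 and 3033. The light chain gene Myl1, at 5967, 4775 and 4343 against 7145, 7680 and 7153, and the calcium buffer Pvalb, at 7846, 8095 and 6318 against 11581, 10413 and 9152, lay below. Slow-fibre genes had a median of 0.56 over 12 tested (3 at an unadjusted p under 0.05, all higher). Fast-fibre genes had a median of 0.15 over 13 (3 higher and 3 lower at that p), and none of either list was called. Over all genes tested these shares were 7.28% higher and 8.17% lower. Tnnc2, the fast troponin C gene, was listed at only 0.280 to 1.23 FPKM in the 6 libraries, while its partner genes Tnni2 and Tnnt3 lay at 2976 FPKM or more in all of them.

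Regeneration genes had no common direction, and several main markers overlapped between the groups. Pax7, which marks satellite cells, had 1.41, 0.802 and 0.9996 FPKM in P311-/- muscle and 0.905, 0.762 and 0.904 in old wild type. Myod1, of activated satellite cells, had 22.5, 26.1 and 26.3 against 19.4, 23.0 and 30.9, and Myog, of differentiating ones, 37.7, 15.3 and 31.6 against 17.4, 22.7 and 45.3. The embryonic myosin Myh3 of newly formed fibres had 30.9, 12.9 and 38.9 FPKM against 11.4, 13.7 and 20.8, and the neonatal Myh8 41.3, 14.6 and 26.4 against 13.7, 16.1 and 24.6. None was called, and their p-values do not show that the groups were alike. Without overlap were 2 of 16 satellite cell genes, both lower, 2 of 19 genes of differentiation and fusion, Des and Mef2d, both higher, and 2 of 13 genes of newly formed fibres, both higher. The latter were Xirp1, an actin-binding protein of damaged fibres, at 23.8, 22.1 and 24.1 FPKM against 14.3, 12.6 and 8.84 (log2 difference 0.99; limma adjusted p = 0.250), and Ankrd1, a stress-responsive ankyrin-repeat protein, at 86.9, 80.4 and 95.1 against 49.1, 49.1 and 68.1 (0.67; limma adjusted p = 0.258). Over all genes tested 8.40% did not overlap upward and 9.10% downward. Of the 16 tested satellite cell genes 3 had an unadjusted p under 0.05, all lower, against 8.17% of all genes tested. Among the 3 was Myf5 at 3.45, 2.01 and 1.78 FPKM against 3.19, 4.69 and 4.73. Cell cycle genes had a median of -0.29 over 25 tested, with library medians of 0.38, -0.84 and -0.29. Of these genes 4 were called without replicate 1, all lower, against 5.32% of all genes tested. The mitotic kinase gene Aurka, at 1.30, 1.503 and 1.23 FPKM against 2.33, 1.98 and 1.88, and Cdkn2a, the senescence-linked cell cycle inhibitor, at 0.329, 0.191 and 0.141 against 0.551, 0.721 and 2.19, did not overlap but were uncalled.

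Markers of other cell types differed in direction. Endothelial markers included 1 gene that fell, Rbp7, and 4 of 16 had an unadjusted p under 0.05 in the lower direction and 2 in the higher. Over all genes tested these shares were 8.17% and 7.28%. Vwf, the clotting factor carrier of vessel walls, had 1.86, 1.80 and 2.73 FPKM against 1.10, 1.10 and 0.796, while Emcn, of capillaries and veins, had 2.07, 1.22 and 1.29 against 2.37, 2.57 and 3.21. The general marker Pecam1 overlapped, and the endothelial sum was 228.9, 160.6 and 160.5 FPKM against 197, 241.3 and 259.9. Schwann cell and nerve genes had a median of 0.68 over 8 tested (0.40, 0.67 and 0.92 by library), and none was called. Of the 8, 2 had an unadjusted p under 0.05, both higher, against 7.28% of all genes tested. Adipocyte markers had a median of 0.55 over 14 and erythroid markers of 0.87 over 5, with none called. The adipocyte sum, 1520, 2165 and 1916 FPKM against 1050, 901.4 and 897.1, was mostly Car3, which muscle fibres also express, at 1198, 1946 and 1706 against 809.4, 718.0 and 705.5. Adipoq, the fat-cell hormone adiponectin, overlapped at 23.2, 6.44 and 8.63 against 11.3, 5.73 and 10.2. Erythroid genes summed to 836.6, 300.1 and 344 FPKM against 971.8, 149.2 and 146.1, high in replicate 1 of both groups.

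Redox and iron genes gave some separated members. Of 21 tested antioxidant and metallothionein genes none was called, 6 had an unadjusted p under 0.05 in the lower direction and 1 in the higher. Over all genes tested these shares were 8.17% and 7.28%. Without overlap were 7 of the 21 downward and 1 upward, against 9.10% and 8.40% of all genes tested. Mt3, a metal-binding protein, had 4.28, 5.04 and 2.45 FPKM against 8.35, 8.66 and 9.78, and the peroxide-removing enzymes Prdx1 and Gpx1 had 78.1, 57.5 and 54.8 against 98.4, 113.6 and 102.2 and 114.1, 83.2 and 82.4 against 147.9, 126.1 and 153.9. Gsr, which regenerates glutathione, was higher in every knockout library at 11.6, 11.5 and 13.3 against 9.26, 9.45 and 9.45. Beside Tfrc, the iron sensor Ireb2 had 6.67, 5.31 and 5.04 FPKM against 7.15, 8.38 and 8.08. Heat shock, proteasome, autophagy, complement and neuromuscular junction genes had medians between -0.14 and 0.12, and 0 members called.

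Leaving out P311-/- replicate 1 changed the number of calls more than leaving out any other library. With replicates 2 and 3 against the 3 old wild-type libraries, 1729 genes were called in place of 10, of which 930 were higher and 799 lower, or 6.19% and 5.32% of genes tested (limma, BH), and 482 differed by at least 2-fold. All 10 genes called with replicate 1 were among them. Replicate 1 itself differed from the old wild-type mean in the same direction for 59.4% of the 1729. The gene with the smallest p there, Arrdc2, an arrestin-domain gene, had 1.83, 28.0 and 22.6 FPKM in P311-/- replicates 1, 2 and 3 and 3.10, 2.45 and 2.45 in old wild type. Its log2 difference was 3.20 ± 0.15 (SE) without replicate 1 (limma adjusted p = 1.74e-04) and 1.97 with it (limma adjusted p = 0.317). Other genes named by their small p in that fit included, in the higher direction, Smyd2 (log2 difference 1.32), Wnk2 (1.46), Mknk2 (1.60), Ipo13 (1.14) and Sptb (1.23), beside Slc25a25, Ddit4 and Klf15 given above. Smyd2, a methyltransferase of muscle, had 24.8, 60.7 and 57.0 FPKM against 25.2, 23.6 and 21.7. In the lower direction they were Casp1 (-1.34), Tmsb4x (-1.33), Azin1 (-1.19), Ptgr1 (-1.58), AW112010 (-1.56) and Bcl2a1d (-3.07), beside Trbc2, Cxcl9, Lum and Rpl34. Casp1, the protease that matures interleukin-1, had 6.70, 2.02 and 1.97 FPKM against 5.51, 5.12 and 5.004, so replicate 1 lay above the wild-type libraries. Calls of other lists in that fit follow, with the number of genes tested in brackets. They stand beside 6.19% called higher and 5.32% lower over all genes tested. The HMGB list (11) had 3 called lower, Hmgb1 included. Proteasome genes (31) had 5 called higher and 1 lower, and autophagy genes (19) 4 higher and 1 lower. Slow-fibre genes (12) had 3 called higher, fast-fibre genes (13) 3 higher and 2 lower, and endothelial markers (16) 2 higher and 4 lower. Antioxidant and metallothionein genes (21) had 4 called lower and iron genes (13) 2 lower. Heat shock genes (20) had 1 called higher and 2 lower, and neuromuscular junction genes (17) 1 higher. Fatty acid genes (25) had 2 called higher, and glycolysis genes (20) 2 higher and 1 lower. Tricarboxylic acid cycle genes (18) had 1 called each way and mitochondrially encoded proteins (13) 1 lower. Satellite cell genes (16) had 1 called each way and genes of differentiation and fusion (19) 2 each way. Genes of newly formed fibres (13) had 1 called lower, adipocyte markers (14) 2 higher and 1 lower, and Schwann cell markers (8) 1 higher.

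**Figure D5:**
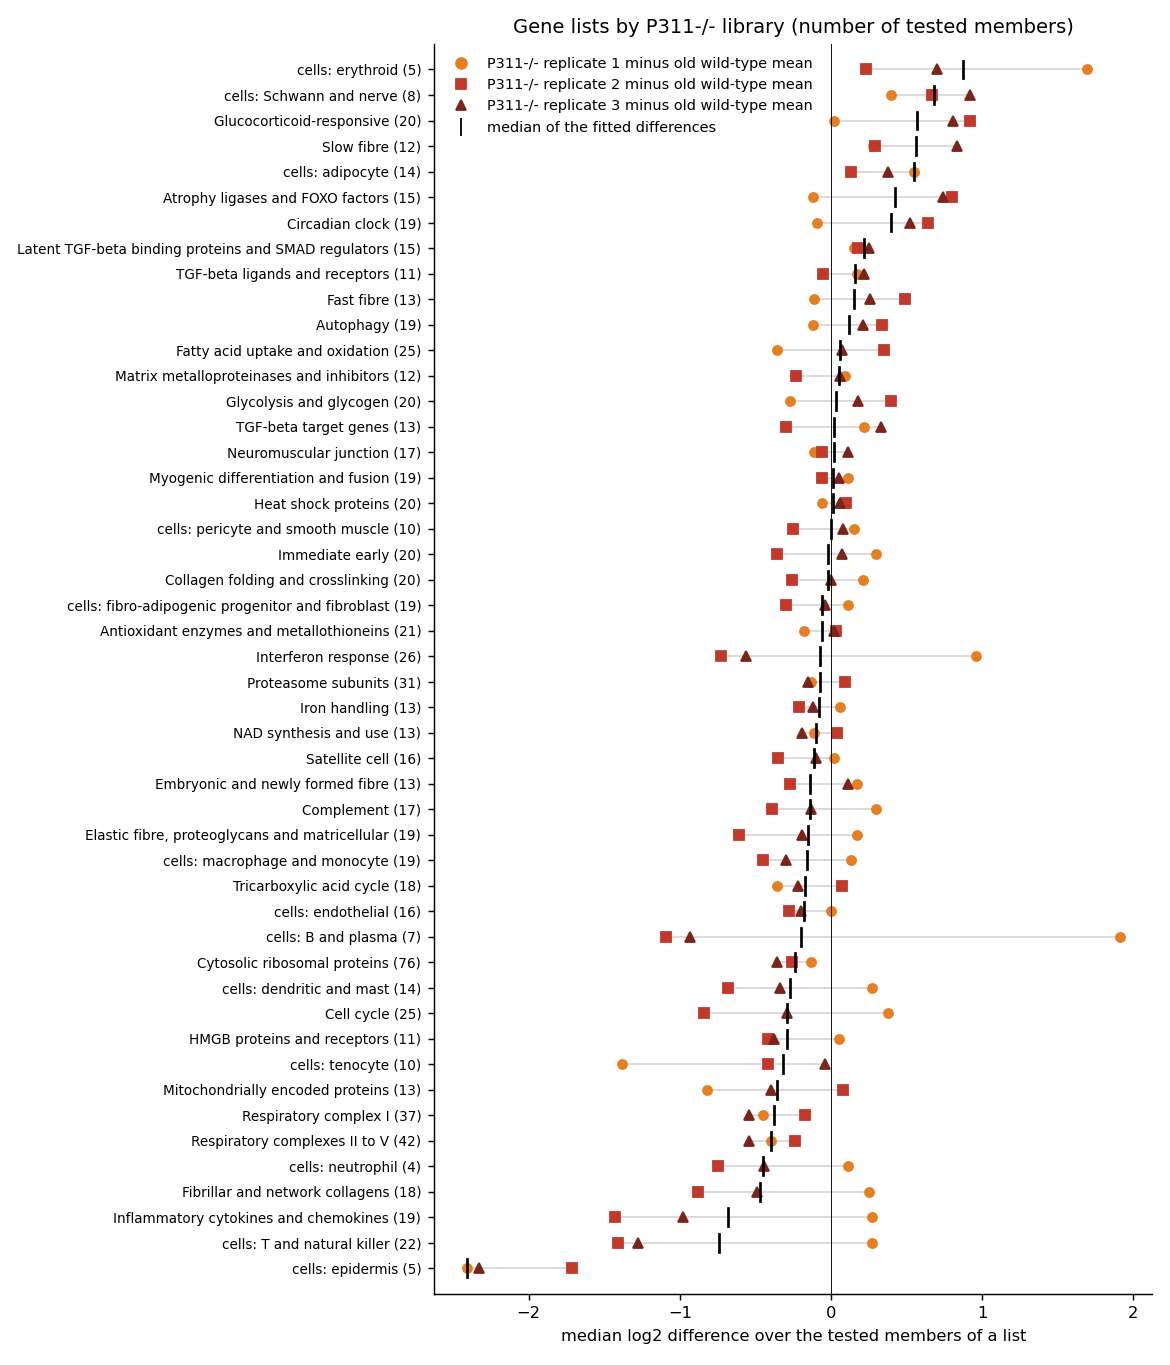
Median log2 difference of the tested members of each of 48 gene lists for P311-/- replicates 1, 2 and 3 against the old wild-type mean, with a black mark at the median of the fitted differences; the number of tested members is in brackets. Replicate 1 lies apart from the other 2 for interferon, B cell, T and natural killer, cytokine, collagen and hormone genes, and all 3 lie together below 0 for the respiratory complexes and epidermal markers.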

How the data were processed

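Bulk RNA from injured mouse tibialis anterior muscle was sequenced in 9 libraries, 3 per group. Per the submitters' processing notes, tools included HISAT2 2.2.1, featureCounts 2.1.1 and DESeq2 1.42.0 with the build mm39. Positions are given on GRCm38, since 53499 of the 54409 identifiers found in GENCODE M21 (98.3%) had the same coordinates there. The sources used here do not say whether counting used strand, so overlapping, antisense and copied genes are uncertain.

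The deposited values are FPKM, divided by the authors by gene length and a scaled library size. The gene lengths, also deposited by the authors, are in bases and were used as given. Each FPKM times gene length was a whole number of reads times 1 constant per library for 100% of values, within a tolerance of 0.001, which gave the reads quoted. The planned count test on these reads was not run, because the deposited unit is FPKM.

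Values of log2(FPKM + 0.1) were tested with limma 3.58.1 (R 4.3.3; trended, robust empirical Bayes). All 9 libraries entered 1 fit with no block, and p-values were adjusted by the Benjamini-Hochberg method over the 15019 genes tested. The method was tested on simulated data in which only genes with many reads were changed and no library stood apart. That test does not cover called genes with few reads or the deviation of P311-/- replicate 1.

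The comparison, the 48 gene lists (916 of 917 entries matched) and the rule for named genes were chosen with earlier results of these data known. The rule named Nrep, every called gene, the 12 uncalled genes in each direction with the smallest p, no overlap, a mean of at least 1 FPKM and an established symbol, the 4 members with the smallest p of each list, 17 genes always given, and up to 10 genes in each direction called without P311-/- replicate 1. Other list members are named as values; those outside the rule were chosen after their values were seen. Some genes that the rule named are not reported here. A total of 23 alternatives was computed, 3 of them chosen after the data were seen: a filter of 10 reads, voom with library quality weights, and removal of length and GC trends together.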

Additional observations from a re-analysis of the deposited data

How the results depend on the processing

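The 10 calls (2 higher, 8 lower) changed most without P311-/- replicate 1 and under both fits with library quality weights. Leaving out 1 library in turn gave 4 to 1729 calls, 1 to 930 of them higher and 3 to 799 lower; the 1729 came without P311-/- replicate 1, and 4 without old wild-type replicate 3. With library quality weights, limma called 2112 genes (1048 higher, 1064 lower), and voom with such weights called 4156 (2052 higher, 2104 lower); the weights of all 9 libraries changed together, in limma to 0.285, 0.714 and 2.25 for P311-/- replicates 1, 2 and 3. Scaling to equal totals gave 6 calls, 2 of them higher and 4 lower. Same-numbered libraries of the old groups did not deviate together (correlations of -0.05, 0.08 and -0.05, and not every library correlated best with its own number), so the numbers were not taken as a pairing; with the number as a block, 3 genes were called (0 higher, 3 lower). The stricter filter of 2 FPKM gave 2 higher and 5 lower calls, voom on recovered reads also 2 and 5, and the 6 old libraries alone 1 and 6. Removing length trends gave 5 higher and 7 lower calls, and length with GC trends 4 and 7. The cause of these changes was not tested beyond what each alternative leaves out or reweights. Nrep, Hmgb1 and Gm15446 were called in all 23 alternatives. Over the 240 named genes, 4952 values kept direction and side of the threshold, 448 passed it, 70 missed it and 28 uncalled ones changed sign; of list medians, 1065 moved by less than the spread and 39 by more. With few reads behind Rbp7, mt-Tg and 1010001B22Rik, depth limits what their levels can show. The planned edgeR and DESeq2 count tests were not run.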
